A study of Homo sapiens with 5 samples.

Results

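A set of 10 p53 target genes was listed for comparison in irradiated LNCaP cells, and 8 of them had a named probe set on the array: PLK3, CCNG2, AEN, ASCC3, TRIM22, SESN1, TP53INP1 and GDF15. The members were taken by symbol from the series' value table, using the platform annotation and the brightest probe set of each gene, and each of the 8 had 1 probe set. They stand among 14812 genes measured in the same way. DDB2 and XPC, which encode damage-recognition factors of nucleotide excision repair, were not analysed here. LNCaP is a human prostate cancer line that responds to androgen. The cells carried a retrovirus under puromycin selection, with a scrambled hairpin (shControl, 2 arrays) or a hairpin directed at RB1 (shRB, 3 arrays). Both groups had received 10 Gy of ionizing radiation 24 h before total RNA was isolated, so the irradiation is shared and its own effect was not measured. The comparison asks which of the p53 targets differ in level when RB1 is knocked down in irradiated cells. Nothing in the labels ties the arrays to separate cultures, and p-values here therefore cover the variation among these 5 arrays, possibly technical, and no more.

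The transcription factor p53 is stabilised after DNA breaks and switches on genes that halt the cell cycle, repair DNA, adjust metabolism or start apoptosis. It binds an element made of a pair of 10-base repeats, each with a C and a G at fixed places around an A/T pair. LNCaP cells are known to retain wild-type p53. RB1 encodes the retinoblastoma protein, which restrains the E2F factors that drive entry into S phase.

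The promoter windows of the members show which of them hold a close match to the p53 element near the annotated start of transcription. RefSeq windows (GRCh38.p14) of 250 bases before to 50 bases after the start were matched for 5 of the 8 members. ASCC3, TRIM22 and TP53INP1 were not matched. The 20-base p53 consensus was searched with both C and G pairs required and mismatches counted at the other 16 positions. The consensus reads the same on both strands. Bases are numbered from the annotated start, with negative numbers before it. The closest matches were in AEN, with 2 mismatches at bases -34 to -15, in GDF15, with 3 mismatches at bases 29 to 48, and at the third of the 3 annotated SESN1 starts, with 3 mismatches at bases -49 to -30. Of 35116 windows searched, 1.12% had a match with at most 3 mismatches and 0.285% with at most 2. PLK3 had no match closer than 6 mismatches, a level reached by 25.1% of windows, and CCNG2 none closer than 9, reached by 65.2%. The bound of 3 was set after the matches were seen. The E2F motif, spelled TTTCCCGC or TTTGGCGC on either strand, lay in the AEN window at bases -199 to -192 and in none of the other 6 member windows, against 2.27% of all windows. It did not overlap the p53 element. A match describes letters only. The 2 upstream windows, 1 for the member with the closest match and 1 for the member that passed the test below, and the elements of SESN1 and GDF15 are given 5′ to 3′. Capitals mark the closest p53 match in each and, in AEN, the E2F motif as well.
AEN, chr15:88621090-88621339, plus strand: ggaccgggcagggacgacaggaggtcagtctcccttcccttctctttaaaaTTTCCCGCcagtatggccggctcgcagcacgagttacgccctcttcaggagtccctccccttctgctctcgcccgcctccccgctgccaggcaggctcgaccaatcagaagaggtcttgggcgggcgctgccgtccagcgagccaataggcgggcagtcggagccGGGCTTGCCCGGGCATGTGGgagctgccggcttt
PLK3, chr1:44800127-44800376, plus strand: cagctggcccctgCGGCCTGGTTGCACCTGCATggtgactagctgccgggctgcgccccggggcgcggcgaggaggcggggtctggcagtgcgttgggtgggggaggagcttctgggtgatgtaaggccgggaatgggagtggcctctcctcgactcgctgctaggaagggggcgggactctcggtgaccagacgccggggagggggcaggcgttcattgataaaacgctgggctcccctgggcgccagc
SESN1, chr6:109009018-109009037, minus strand: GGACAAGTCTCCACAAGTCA
GDF15, chr19:18386186-18386205, plus strand: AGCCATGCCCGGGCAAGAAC

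Values are log2 of the deposited intensity of a probe set, a group of short array probes read together. The lowest intensity on every array was 16, a log2 of 4, which acts as a floor and compresses the differences of dim genes. Array medians ranged from 26.6 to 28.1. RB1, the target of the hairpin, stood at 5.81 and 5.70 in shControl and at 5.16, 5.28 and 5.20 in shRB, below both shControl arrays in each (log2 difference -0.54, SE 0.14, limma adjusted p = 0.0967), so the knockdown itself did not pass the threshold. Of 6 measured luminal prostate markers, 0 passed (limma) and 0 had an unadjusted p under 0.05. KLK3, prostate-specific antigen, was at a log2 intensity of 10.06 to 10.17 on all arrays. The keratin KRT18 (log2 difference -0.29) and the homeobox factor HOXB13 (-0.17) were lower on every shRB array, while KRT8 (0.23) and FOLH1 (0.13) were higher on average. Of 25 measured basal, neuroendocrine, stromal, blood and endothelial markers, 0 passed the test (limma), 6 had an unadjusted p under 0.05 (18.1% of all genes had), 2 had an adjusted p under 0.1 (3.49% of all genes had), and their summed intensity was 717 and 837 in shControl and 793 to 826 in shRB. Of these markers, 7 were higher on every shRB array (20.6% of all genes were) and 2 lower (15.4% were). The 7 included neurotensin, NTS (0.72, limma adjusted p = 0.0552), gastrin-releasing peptide, GRP (0.60, 0.0935), the endothelial EMCN (0.56, 0.106) and the basal DST (0.53, 0.171). The rest were LYZ (0.32, 0.334), CD14 (0.28, 0.348) and the neuroendocrine CHGA (0.27, 0.403). VWF (-0.65, 0.164) and the basal KRT15 (-0.40, 0.206) were lower on every shRB array. NTS, GRP, EMCN, LYZ, CD14 and CHGA were near the floor in shControl (mean log2 intensity 4.21 to 4.41), so the size of their differences is not known. As deposited, the differences of NTS, GRP, EMCN, DST, VWF and KRT15 are as large as those of several members. These markers' part in the results below was not tested. Of the 10 measured neuroendocrine markers, 6 had positive and 4 negative differences, SYP (-0.27) and INSM1 (-0.14) among the negative. The shControl arrays correlated with each other at r = 0.966 and the shRB arrays at r = 0.983 to 0.986 across genes. Between the groups r was 0.955 to 0.970. Replicate 1 of shControl correlated more closely with shRB replicates 1 and 2 (0.969 and 0.970) than with the other control array. Among the members, the control arrays had the larger SD in PLK3, AEN, ASCC3 and TRIM22, and the shRB arrays in CCNG2, SESN1, TP53INP1 and GDF15. The number of arrays limits the precision.

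Of the 8 measured members, 1, PLK3, rose in shRB cells, and no other member passed the test over all genes. AEN, ASCC3 and TRIM22 had higher values on every shRB array than on either shControl array, and CCNG2 had lower values, at log2 differences of 0.67, 0.52, 0.54 and -0.47, but these did not pass. SESN1, TP53INP1 and GDF15 differed by 0.14 or less in either direction. The test was limma on the 14812 genes, two-sided, with Benjamini-Hochberg adjustment and a threshold of 0.05. It called 0.695% of all genes higher in shRB, 0.378% lower and 1.07% in either direction. At a looser threshold of 0.1, which 3.49% of all genes passed, AEN was called as well. An unadjusted p under 0.05 was seen in 5 of the 8 members and in 18.1% of all genes. Arrays did not overlap between groups for 6 of the 8 members and for 36.0% of all genes tested. They lay higher in shRB for 4 members (20.6% of all genes) and lower for 2 (15.4%). The median log2 difference was 0.33 over the 8 members and 0.02 over all genes. The members were listed with earlier results of these data known, so these shares and medians do not test whether p53 targets differ as a group. In RNA from whole cultures, fewer cells of a type and less RNA per cell cannot be told apart.

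**Figure D1:**
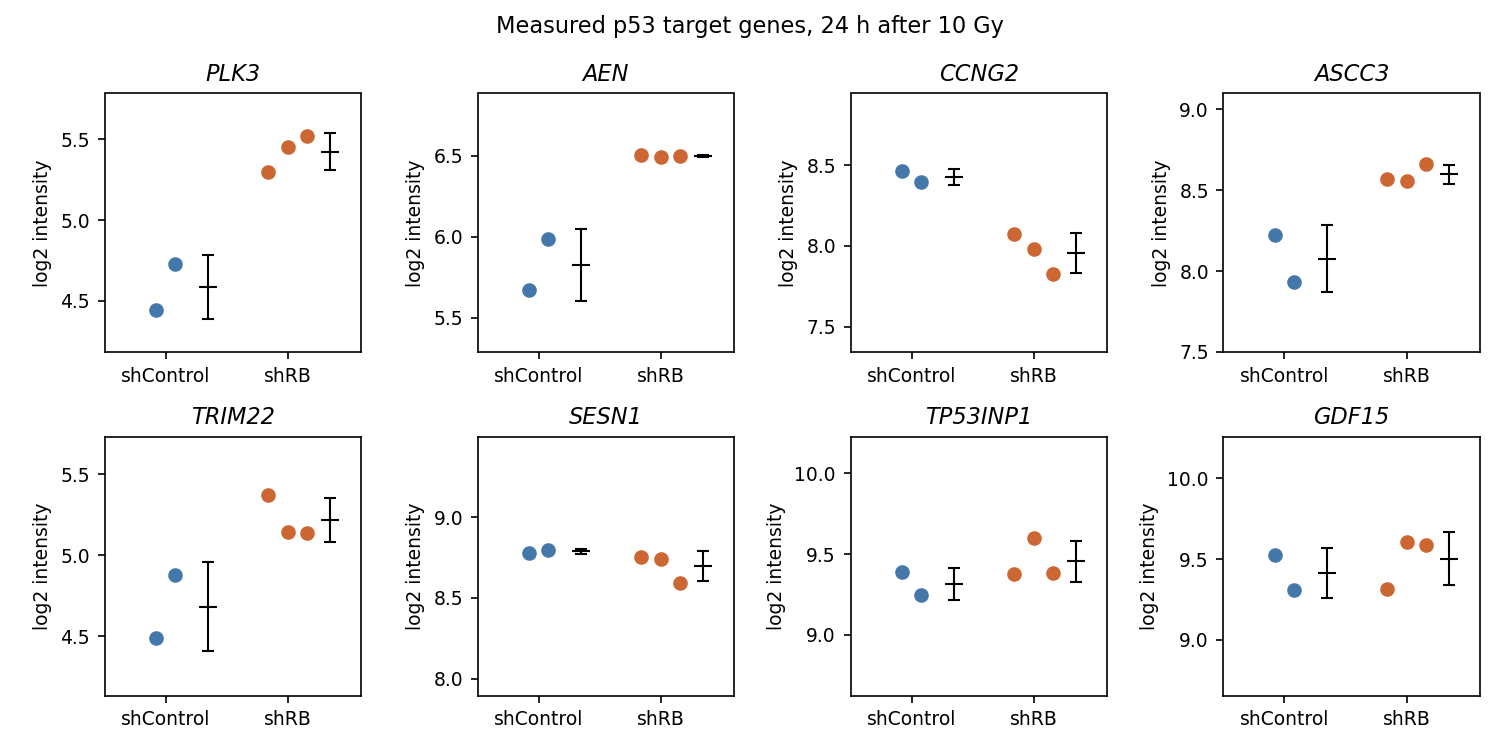
Log2 intensity of the 8 measured p53 target genes on each array (points, in replicate order from left to right) in shControl (blue, 2 arrays) and shRB (orange, 3 arrays), with the mean and SD of each group in black. All panels span the same number of log2 units. The groups are apart in PLK3, AEN, CCNG2, ASCC3 and TRIM22, nearly touch in SESN1 and overlap in TP53INP1 and GDF15.

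Of the members linked to growth arrest, PLK3 and CCNG2 stood in opposite directions. PLK3 encodes a polo-like kinase that responds to DNA damage and other stress. Its deposited intensity was 21.8 and 26.5 in shControl and 39.4, 43.7 and 45.9 in shRB, so every shRB array lay above both control arrays. On the log2 scale it rose by 0.84 (SE 0.16, 95% interval 0.49 to 1.18, adjusted p = 0.0336, limma), from 4.59 ± 0.20 (SD, n = 2) to 5.42 ± 0.11 (SD, n = 3), or 1.79-fold on the deposited scale. The gap of 0.57 between the highest control and the lowest shRB array was wider than the range within either group, 0.28 and 0.22. Both groups lay near the floor, and with 16 subtracted from the intensities the shRB mean was 3.32 times the control mean, so the size of the rise in transcript is not known. In that form, with 4 added before the logarithm, the difference was 1.38 and did not pass (adjusted p = 0.115). It also did not pass without shControl replicate 1 (adjusted p = 0.0564) or without shRB replicate 1, 2 or 3 (0.137, 0.177 and 0.208), with array weights (0.0511) or with the replicate number as a block (0.194).

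CCNG2 encodes cyclin G2, an unconventional cyclin associated with cell cycle exit. Its log2 intensity was 8.46 and 8.39 in shControl and 8.07, 7.98 and 7.82 in shRB. All 3 shRB arrays lay below both control arrays, with a gap of 0.32. The difference was -0.47 (SE 0.15, 95% interval -0.80 to -0.14), 1.39-fold lower, and did not pass (adjusted p = 0.14, limma). CCNG2 was well above the floor, and with the constant of 16 removed the fold was nearly the same, 1.41.

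AEN, the apoptosis-enhancing nuclease, is an exonuclease that p53 induces. It stood at a log2 intensity of 5.67 and 5.99 in shControl and at 6.50, 6.49 and 6.50 in shRB. The shRB arrays were nearly equal (SD 0.0063, n = 3) and the control arrays were 0.32 apart, so the control side had the wider spread. The difference of 0.67 (SE 0.15, 95% interval 0.33 to 1.01), 1.59-fold, did not pass (adjusted p = 0.0679, limma). It passed when the dimmer genes, those under the median intensity, were left out (adjusted p = 0.0293) and with an intensity trend and robust variances (0.0369). The setting with the trend also called more of all genes, 426 against 159 of 14812. The filter on dim genes called 385 of 7406, which cannot be set directly against 159. AEN did not pass in the other settings that kept both control arrays. Among them were those without shRB replicate 1, 2 or 3 (0.230, 0.226 and 0.260) and with the replicate block (0.253). Without shControl replicate 2, which left 1 control array, the difference was 0.83. The AEN window, shown above, held both the closest p53 match and the E2F motif. GDF15 and SESN1, the other members with a p53 match of at most 3 mismatches, differed by 0.09 and -0.09. PLK3, the member that passed, had neither such a match nor the E2F motif in its window. Whether either motif bears on these differences was not tested.

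ASCC3 encodes the helicase of the activating signal cointegrator complex, which opens DNA for repair of alkylated bases and also acts on stalled ribosomes. Its log2 intensity was 8.22 and 7.93 in shControl and 8.57, 8.56 and 8.66 in shRB, with the groups apart by 0.33. The difference was 0.52 (SE 0.15, 95% interval 0.18 to 0.86, adjusted p = 0.118, limma), 1.43-fold. Here too the control arrays were farther apart, by 0.29, than the shRB arrays, by 0.11. Of 14 alternatives ASCC3 passed only with an intensity trend and robust variances (adjusted p = 0.0273). CCNG2 likewise passed only in that setting (0.0481).

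TRIM22, an interferon-inducible ubiquitin ligase that restricts viruses and is also a p53 target, was dim. It stood at a log2 intensity of 4.49 and 4.88 in shControl and at 5.38, 5.14 and 5.14 in shRB. The difference was 0.54 (SE 0.17, 95% interval 0.17 to 0.90, adjusted p = 0.136, limma), 1.45-fold as deposited and 2.15-fold with the constant removed. The gap between groups, 0.26, was smaller than the distance between the control arrays, 0.39.

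The members that act on metabolism and autophagy were bright and differed little between groups. SESN1, a sestrin that restrains the growth kinase complex mTORC1 under stress, stood at a log2 intensity of 8.78 and 8.80 in shControl and at 8.76, 8.74 and 8.59 in shRB. The shRB arrays were lower by a gap of only 0.02, and the difference of -0.09 (95% interval -0.41 to 0.23, adjusted p = 0.778, limma) was -0.04 without shRB replicate 3. TP53INP1, a p53-induced nuclear protein that also takes part in autophagy, stood at 9.39 and 9.25 in shControl and at 9.38, 9.60 and 9.38 in shRB. The groups overlapped, and the difference was 0.14 (95% interval -0.20 to 0.47, adjusted p = 0.673). For these genes the intervals leave room for changes of either sign.

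GDF15, a secreted cytokine of the TGF-beta superfamily that marks cell stress, stood at a log2 intensity of 9.53 and 9.31 in shControl and at 9.31, 9.60 and 9.59 in shRB. In each group 1 array was low and the groups overlapped. The difference was 0.09 (95% interval -0.27 to 0.44, adjusted p = 0.817, limma), and it was -0.024 without shControl replicate 2. GFRAL, its receptor in the brainstem, was near the floor on all arrays, at 4.05 to 4.40.

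**Figure D2:**
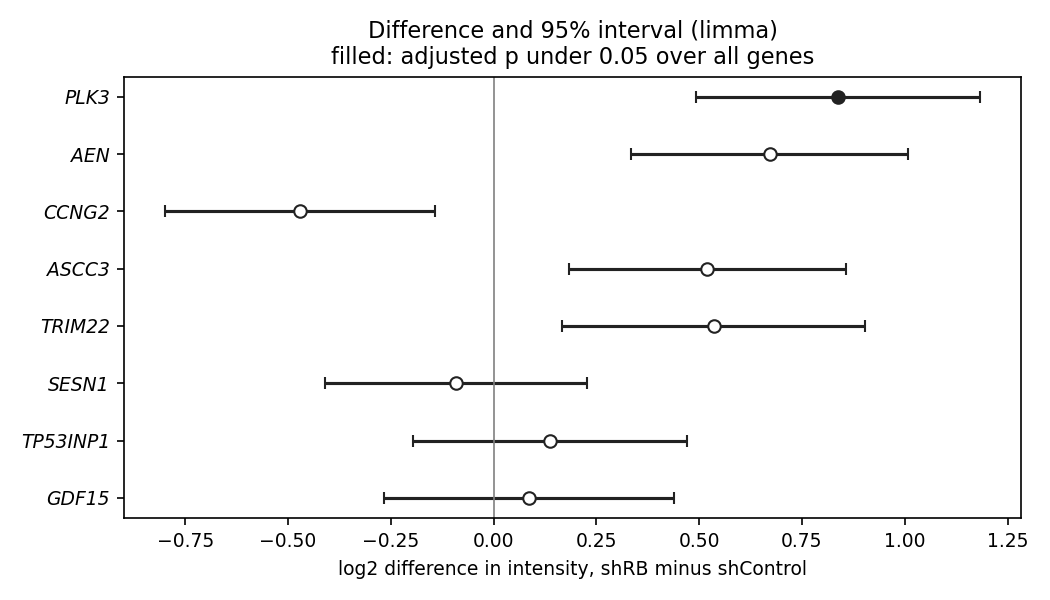
Log2 difference in intensity (shRB minus shControl) of the 8 measured p53 target genes, with 95% intervals from limma that are not adjusted for the number of genes. PLK3, the filled point at 0.84, passed the adjusted threshold over all genes, and the intervals of SESN1, TP53INP1 and GDF15 span 0.

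The relatives of the members were set beside them, from families written down after the members' values were known. Of the 5 polo-like kinase genes, PLK3 alone passed. PLK2, the family member that is likewise a p53 target, stood at a log2 intensity of 7.61 and 7.34 in shControl and at 7.41, 7.33 and 7.37 in shRB (difference -0.11, adjusted p = 0.747, limma). The mitotic kinase PLK1 differed by -0.24 (adjusted p = 0.483), the centriole kinase PLK4 by -0.01 (0.988) and PLK5 by -0.02 (0.973), and the sign of the PLK4 value turned with the constant of 16 removed. Whether PLK3 differed from its relatives in response was not tested.

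The cyclins most like CCNG2 were also lower on every shRB array, as were 15.4% of all genes, without passing. CCNG1, cyclin G1 and a p53 target, stood at 10.13 and 10.04 in shControl and at 9.83, 9.83 and 9.63 in shRB (difference -0.32, SE 0.15, adjusted p = 0.283, limma). CCNI, cyclin I, stood at 10.32 and 10.20 in shControl and at 10.01, 10.01 and 9.94 in shRB (difference -0.28, SE 0.14, adjusted p = 0.336). Quantile normalization, subtraction of array medians and removal of the constant left all 3 cyclins with negative differences.

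In the other families no gene passed. The sestrin SESN2 differed by 0.25 (adjusted p = 0.459, limma) and SESN3 by -0.10 (0.765). Among the partners of ASCC3, the subunit ASCC2 stood at 0.43 (adjusted p = 0.194), ASCC1 at -0.20 (0.603) and TRIP4 at -0.40 (0.268). TRIM5, the antiviral neighbour of TRIM22, differed by 0.13 (0.744), TP53INP2 by -0.04 (0.925) and ISG20, an exonuclease of the same family as AEN, by -0.01 (0.98).

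**Figure D3:**
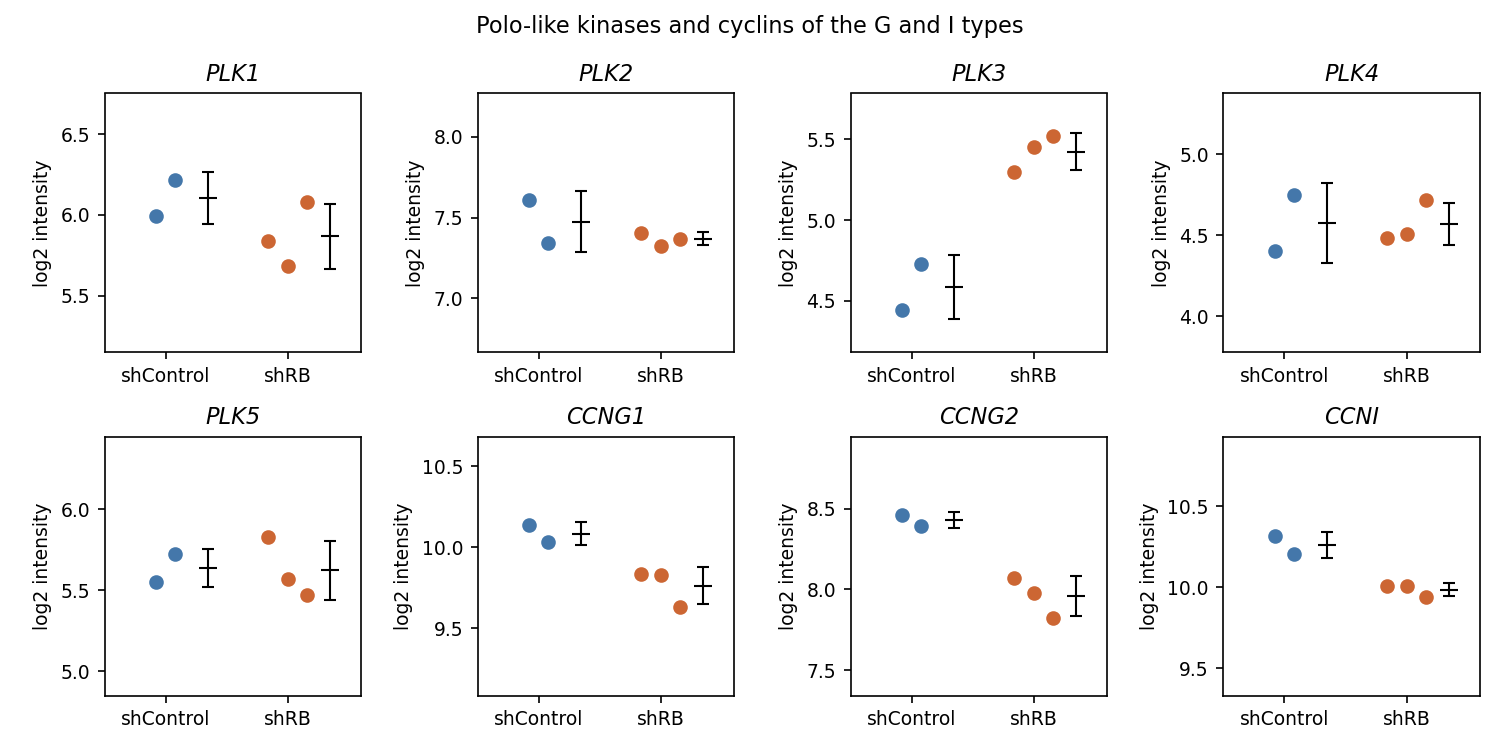
Log2 intensity on each array (points, in replicate order from left to right) of 5 polo-like kinase genes and of CCNG1, CCNG2 and CCNI in shControl (blue, 2 arrays) and shRB (orange, 3 arrays), with the mean and SD of each group in black. The groups are apart in PLK3 and in the 3 cyclins and overlap in PLK1, PLK2, PLK4 and PLK5.

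A wider list of 127 p53 targets, the 10 members included, had 80 measured genes. Of these, 2 rose, PLK3 and DUSP14, and 0 fell (limma over all genes), against 0.695% of all genes higher and 0.378% lower. An unadjusted p under 0.05 was seen in 15 of the 80 (18.8%), about the 18.1% of all genes, and in 10 of the 72 that are not members (13.9%). Differences were positive in 54 of the 80 (67.5%), against 53.8% of all genes, with a median of 0.10 against 0.02. Arrays did not overlap in 31 of the 80 (38.8%), close to the 36.0% of all genes, and in 25 of the 72 (34.7%). CDKN1A and MDM2, the best known p53 targets, were not analysed here, nor were FAS, TNFRSF10B, ZMAT3, PHLDA3, BTG2, GADD45A, PPM1D, POLH, FDXR, GLS2 and FBXW7. DUSP14, a phosphatase that acts on MAP kinases, stood at a log2 intensity of 6.60 and 6.46 in shControl and at 7.26, 7.31 and 7.38 in shRB. It rose by 0.79 (SE 0.15, 95% interval 0.47 to 1.11, adjusted p = 0.0315), 1.73-fold. It did not pass without shControl replicate 2 (adjusted p = 0.0631), without shRB replicate 1, 2 or 3 (0.159, 0.165 and 0.197), with array weights (0.0546), with the replicate number as a block (0.207) or with the constant removed (0.143).

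By role, the 13 measured apoptosis genes had a median difference of 0.17, with 8 positive, 5 negative and 0 past the test (limma), with 4 at an unadjusted p under 0.05 (30.8%, against 18.1% of all genes). Of all genes, 53.8% had positive differences. PIDD1, a death-domain protein outside the naming rule and chosen after its values were seen, stood at 5.12 and 5.38 in shControl and at 5.75, 5.91 and 5.79 in shRB (difference 0.57, adjusted p = 0.0975) and passed with the dimmer genes left out (adjusted p = 0.0489). PMAIP1, the BH3-only protein NOXA, stood at 6.09 and 5.48 in shControl and at 6.27, 6.23 and 6.60 in shRB (difference 0.58, adjusted p = 0.166). BBC3, the BH3-only protein PUMA, had control arrays at 6.40 and 5.31, the widest control pair of these 13 genes, and shRB arrays at 6.13, 6.22 and 5.98 (difference 0.25, adjusted p = 0.647). Without shControl replicate 1, which left 1 control array, PMAIP1 was at 0.89 and BBC3 at 0.79. All 3 shRB arrays of BBC3 lay below shControl replicate 1 and above shControl replicate 2, so its sign depends on which control array is used. The pore-forming BAX differed by 0.37 (adjusted p = 0.286), the oxidoreductase TP53I3 by -0.15 (0.674) and the receptor EDA2R by -0.0044 (0.993).

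The 10 measured arrest and growth genes had 6 positive and 4 negative differences (median 0.07), and the called gene was PLK3. E2F7, an atypical E2F repressor that p53 induces, differed by 0.10 (adjusted p = 0.768, limma). In the repair group only ASCC3 and RRM2B, a ribonucleotide reductase subunit (0.21, adjusted p = 0.59), were measured of 11 listed.

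Of the 13 redox, metabolism and autophagy genes, 9 had positive and 4 negative differences (median 0.10), with 0 past the test and 0 at an unadjusted p under 0.05 (limma). TIGAR, a fructose bisphosphatase, differed by -0.12 (adjusted p = 0.709), the lysosomal protein DRAM1 by 0.11 (0.732) and SPATA18, a factor of mitochondrial quality control, by -0.31 (0.335). The 5 feedback and ubiquitin genes, TRIM22 among them, were all positive (median 0.10) with 0 past the test and 1, TRIM22, at an unadjusted p under 0.05. Over all genes, 53.8% of differences were positive and 18.1% had an unadjusted p under 0.05. RPS27L, a ribosomal protein paralog, differed by 0.04 (adjusted p = 0.925) and PML, the scaffold of nuclear bodies, by 0.13 (0.768). Among 37 signalling, adhesion and other targets (24 positive, 13 negative, median 0.09), the stress-induced factors ATF3 and IER5 differed by 0.39 (0.286) and 0.18 (0.621), and DUSP14 was the 1 gene past the test.

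**Figure D4:**
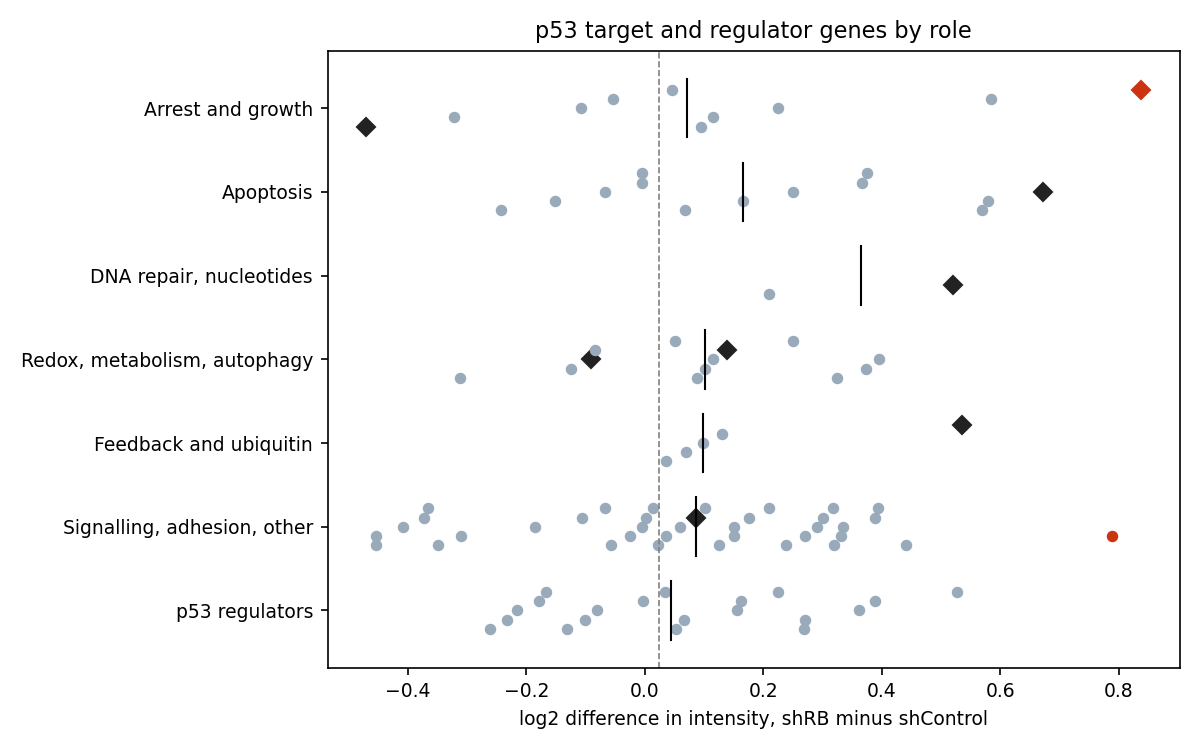
Log2 difference (shRB minus shControl) of each measured p53 target and p53 regulator, 1 point per gene, by role. Diamonds are the 8 members, red marks the genes past the adjusted threshold (PLK3 and DUSP14), short black lines are group medians and the dashed line is the median of all genes, 0.02.

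Genes that act on p53 itself did not pass. Of 20 measured regulators of 26 listed, 11 had positive and 9 negative differences (median 0.04), with 0 called (limma). Positive differences made up 55%, against 53.8% of all genes. An unadjusted p under 0.05 was seen in 3 (15%, against 18.1% of all genes). The highest difference was that of ATR, the kinase that senses stalled forks, at a log2 intensity of 6.18 and 6.02 in shControl and 6.56, 6.76 and 6.56 in shRB (0.53, adjusted p = 0.112). MDM4, which binds and restrains p53, stood at 7.84 and 7.93 in shControl and at 8.20, 8.39 and 8.24 in shRB (0.39, adjusted p = 0.202). The kinases CHEK1 (0.16, adjusted p = 0.599), CHEK2 (-0.08, 0.829) and HIPK2 (0.27, 0.355), the deubiquitinase USP7 (-0.17, 0.603) and the break-site adaptor TP53BP1 (-0.10, 0.78) did not pass either.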

How the data were processed

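Transcripts were measured on single-colour whole-transcript arrays of biotin-labelled cDNA, 2 shControl and 3 shRB, with groups taken from the labels. The deposited values are linear intensities per probe set. The sources used here do not give their background correction, summarisation, normalization or build. The table held 44607 probe sets, of which 15835 had 1 gene symbol here. The other 28772 had no name here or more than 1 symbol, and these were not counted apart. Entrez identifiers were used to update symbols (RefSeq, GRCh38.p14, 15835 matched). For each gene the brightest probe set by mean log2 was kept, which left 14812 genes with no filter.

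Log2 intensities were tested with R 4.3.3 and limma 3.58.1 (lmFit and eBayes on the 2 groups, two-sided p-values), and Benjamini-Hochberg adjustment ran over all genes. The test was checked on simulated data. Named genes were the members, a written list of well-known targets and regulators, and any listed gene that passed. The members and lists were chosen with earlier results of these data known. Alternatives were quantile normalization, median subtraction, removal of the constant of 16, a filter on dim genes, probe set averages, all probe sets, an intensity trend, array weights, a replicate block, a threshold of 0.1 and leaving out each array.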

Additional observations from a re-analysis of the deposited data

How the results depend on the processing

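The count of 1 member past the test was 0 with the constant of 16 removed, with array weights and with the replicate number as a block, 4 with an intensity trend and robust variances, 2 at a threshold of 0.1, and 0 to 2 when 1 array was left out. For the wider p53 list, 2 in the reported test, these were 0 with the constant removed, with array weights and with the block, 5 with the trend, 4 at 0.1 and 0 to 4 without 1 array, the highest without shControl replicate 1. Among the p53 regulators 0 passed in every one of these settings. Over all genes the count of 159 (64.8% higher in shRB) became 13 with the constant removed (4 higher, 9 lower), 385 without dim genes, 426 with the trend, 88 with array weights, 24 with the block (8 higher, 16 lower), 340 over all probe sets, 517 at 0.1 and 22 to 411 without 1 array, lowest without shRB replicate 2 or 3 and highest without shControl replicate 1. The 385 were out of 7406 genes and the 340 out of 44607 probe sets, while the other counts were out of 14812 genes. The counts of 385 and 340 therefore cannot be set directly against 159. The block costs degrees of freedom. Deviations of same-numbered arrays from their group means correlated at r = -0.02 and 0.05 across genes. With 2 control arrays these deviations mirror each other, so the check cannot decide whether the numbers mark pairs. The labels do not say that they do, and the reported test did not use them. PLK3 was positive in all 13 alternatives that kept it (0.70 to 1.38) and passed in 6. DUSP14, run through the same 14 alternatives after seeing the data, was positive in all and passed in 7. GDF15 ranged from -0.024 to 0.20 without 1 array and changed sign without shControl replicate 2. The other member differences kept their sign in all alternatives run. PLK3 and TRIM22 were left out by the filter on dim genes, and their closeness to the floor limits what their fold changes mean.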
